A study of Sorghum bicolor with 64 samples.

Results

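The set comprised the sorghum genes whose deposited descriptions named a subunit or enzyme of the mitochondrial respiratory chain or the F-type ATP synthase. The selection rule took every gene described as NADH dehydrogenase (ubiquinone), NADH:ubiquinone reductase, ubiquinol-cytochrome c reductase, cytochrome c1, cytochrome c oxidase, succinate dehydrogenase, F-type ATPase or alternative oxidase, and left out assembly factors and plastoquinone enzymes. It found 75 of 16942 genes in the stem table and 73 of 16386 in the leaf table, with 71 in both and 77 in either. The rule reads descriptions and uses no measured value. No description read "alternative oxidase", so the set held none, and the ubiquinol oxidases are given at the end with the other neighbouring genes.

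The respiratory chain passes electrons from NADH and succinate through the inner mitochondrial membrane to oxygen. Complexes I, III and IV pump protons on the way, and the ATP synthase uses the returning protons to make ATP. Complex II and the type II NADH dehydrogenases feed electrons in without pumping. Most subunits are encoded in the nucleus, often by several gene copies, and a few in the mitochondrial genome. Chloroplasts hold a related ATP synthase of their own. In growing and storing stems, respiration of imported sucrose supplies the ATP for transport and synthesis.

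RNA came from field-grown near-isogenic lines in the Tx623 background, *DD* with a functional *SbNAC074A* and *dd* with a truncated allele, which lost their heads at anthesis (head removal) or kept them (control) and were sampled 3 or 10 d later. The inner tissue of the fourth internode, without its outer green layer, gave 29 stem samples in 8 groups of 3 or 4. The middle of the second leaf gave 24 leaf samples in 8 groups of 3. A further 3 stem and 8 leaf samples that are described have no column and were not analysed here. The genotypes form a single near-isogenic pair, *DD* against *dd*, and the sources do not state whether replicates came from separate plots. The p-values therefore rest on the spread between these samples only.

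Values were in TPM, a transcript's share of its library, which are corrected for gene length and sum to nearly the same total in each sample. Sequencing depth is therefore unknown, and a rise of some genes lowers the share of the rest. Fewer cells of a type and less RNA per cell cannot be told apart in such bulk tissue. The level of *SbNAC074A* itself (Sobic.006G147400) overlapped between genotypes in stems (0.387 to 32.1 TPM in *DD* and 0.361 to 53.9 TPM in *dd*), so it did not check the labels. In stems, *dd* control 10 d replicates 3 and 4 lay apart from the other controls on the first principal component, on the side of the head-removal samples. In leaves, *DD* head removal 3 d replicates 2 and 3 lay apart from replicate 4, at -29.5, -27.5 and 16.6 on this component. Other leaf groups spread as widely, such as *dd* controls at 3 d, at 58.6, 30.7 and -5.37. The *dd* head removal samples at 3 d stood at 18.7, -29.5 and -19.1. Leaf alternatives without the samples that lay apart keep only replicate 4 of that group. The summed TPM of chlorenchyma (green tissue) markers was 4029 to 16450 in stems and 41480 to 93150 in leaves, so the stem tissue was not free of photosynthetic transcripts.

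By their descriptions the members fell into 9 classes. In stems there were 21 genes of complex I, 5 of complex II, 8 of complex III, 12 of complex IV and 11 of the mitochondrial ATP synthase, 57 in all. The other stem members were 5 genes of the bacterial or plastid form of the ATP synthase, 2 type II NADH dehydrogenases, 10 genes known only by an enzyme number and 1 copper chaperone related to cytochrome c oxidase. The leaf table held 7 genes of the plastid form. These last classes go partly against the name of a mitochondrial set. The plastid form belongs to chloroplasts, and the enzyme-number genes included an L-galactonolactone dehydrogenase (Sobic.005G031000), which makes ascorbate in mitochondria, and a pair of quinone reductases (Sobic.003G429200 and Sobic.003G429300). Members at nuclear loci that resemble organelle genes, such as *COX1* (Sobic.004G303466), *ATP1* (Sobic.004G120150) and the plastid-form subunit a (Sobic.003G169200), may have taken reads from the organelle genomes and are uncertain. All these genes were kept and are given by class.

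The members were highly expressed in stems. Their mean levels ran from 2.21 to 753 TPM with a median of 163 TPM, against a median of 19.95 TPM over all stem genes, and together they made up 1.43% of the total. The summed level was 11260 to 16570 TPM over the 29 samples. Complex I summed to 4904 ± 505 TPM (SD over samples, n = 29), complex II to 523 ± 40.4 TPM, complex III to 1517 ± 151 TPM, complex IV to 2102 ± 441 TPM and the mitochondrial ATP synthase to 3708 ± 370 TPM. Each sum covers the genes the rule found, not every subunit. The highest member of each complex was NDUFA5 (Sobic.001G392800) at 436 ± 73.9 TPM in complex I, the flavoprotein SDHA (Sobic.002G028700) at 238 ± 23.1 TPM in complex II, the Rieske iron-sulfur protein (Sobic.006G058900) at 407 ± 61.4 TPM in complex III, subunit 5C (Sobic.008G129400) at 588 ± 109.6 TPM in complex IV and subunit O (Sobic.004G264700), part of the stalk that holds the catalytic head still, at 753 ± 112.9 TPM in the ATP synthase.

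In leaves 59 of the 71 shared members stood at a lower mean level than in stems. The median log2 ratio of leaf to stem was -0.98, against -0.38 over all 14496 shared genes. All 21 genes of complex I, all 8 of complex III and 10 of 11 of the mitochondrial ATP synthase were on this side, and complex I summed to 2444 ± 281 TPM (SD, n = 24) and the mitochondrial ATP synthase to 1596 ± 173 TPM. The 5 shared genes of the plastid-form ATP synthase went the other way, with a median log2 ratio of 3.14. Their subunit b (Sobic.001G417200) stood at 131 ± 22.1 TPM in stems and 2598 ± 439 TPM in leaves. The tables of stem and leaf were made separately, so these levels are set side by side without a test.

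**Figure D1:**
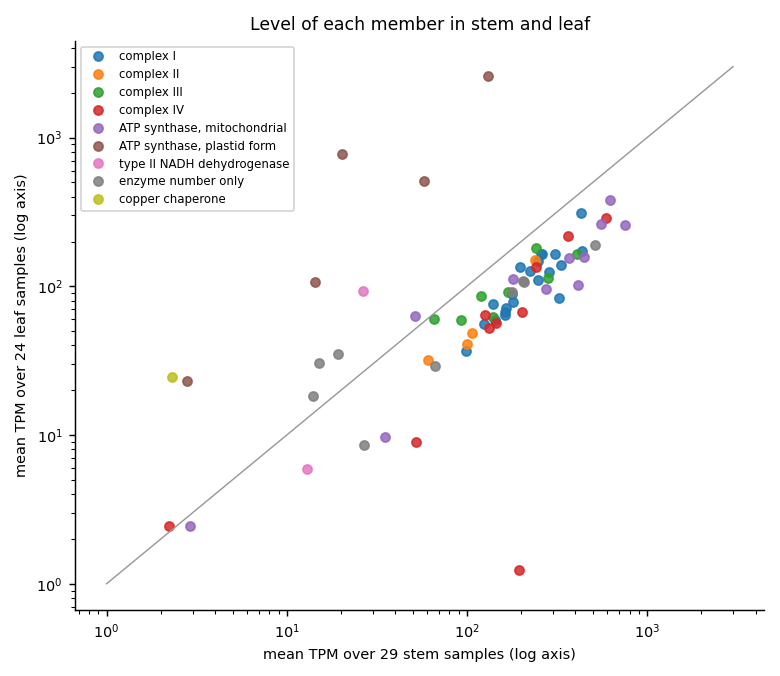
Mean TPM of each of the 71 shared members over 29 stem samples (horizontal, log axis) and over 24 leaf samples (vertical, log axis), coloured by class, with a line of equal levels. Complexes I to III lie below the line and the plastid-form ATP synthase above it, and the COX7a copy at 194 TPM in stems and 1.24 TPM in leaves lies farthest below.

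Each change below was estimated on the log2(TPM + 1) scale by limma, separately by organ, in a model with additive terms for treatment, genotype and day. A gene passed at an adjusted p under 0.01 (Benjamini-Hochberg over all genes of the organ). On this scale the change of low genes is understated. The question of the study was which genes respond to head removal, to the *D* locus and to time in the organs that make and store sugar.

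The genotype gave the most member calls of the 3 factors in stems. There 26 of 75 members (34.7%) were higher in *dd*, against 5.17% of all stem genes, and 2 (2.67%) were lower, against 12.7%. Of the 26, 25 had the same sign in all 4 combinations of treatment and day. With head removal 13 members (17.3%) rose in stems, against 14.4% of all genes, and 4 (5.33%) fell, against 23.5%. All 17 had 1 sign in the 4 combinations. The share that rose was thus near that of all genes and the share that fell was below it. Between 3 and 10 d 3 members rose in stems, against 8.84% of all genes, and 15 (20%) fell, against 23.7%, a share near that of all genes. All 3 that rose and 12 of the 15 that fell had 1 sign in the 4 combinations. The median change of the members was 0.08 with head removal, 0.15 in *dd* and -0.08 at 10 d, beside -0.06, -0.06 and -0.09 over all genes.

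In leaves 14 of 73 members (19.2%) rose with head removal, against 4.32% of all leaf genes, and 4 (5.48%) fell, against 7.05%. The first count was 6 without the leaf *DD* head removal 3 d samples that lay apart, and 7 to 9 without any single one of 5 samples, which were replicate 3 of the *dd* controls at 3 d, replicate 2 of *DD* head removal at 3 d and at 10 d, replicate 2 of *dd* head removal at 3 d and replicate 3 of the same at 10 d. It was 5 with the replicate number as a block. For the genotype limma called no leaf member, 0 higher against 4.7% of all genes and 0 lower against 0.738%. An unadjusted p under 0.05 was found for 17 of 73 members, beside 4741 of 16386 leaf genes. From 3 to 10 d 24 members (32.9%) rose, against 17.8% of all genes, and 2 (2.74%) fell, against 3.69%. The median member changed by 0.09, 0.06 and 0.22, beside -0.02, 0.03 and 0.09 over all leaf genes. Rescaling each sample to the median gene (median of ratios) moved the median of all leaf genes between days by -0.10 and left 6 members higher and 3 lower, so the count for day in leaves depended on the scaling. In stems the same scaling gave 20 higher and 1 lower for head removal, 31 and 2 for genotype and 6 and 5 for day. Among the members called, the share that was higher then stood at 95.2% in place of 76.5% for head removal and at 54.5% in place of 16.7% for day, where quantile scaling gave 26.3%.

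**Figure D2:**
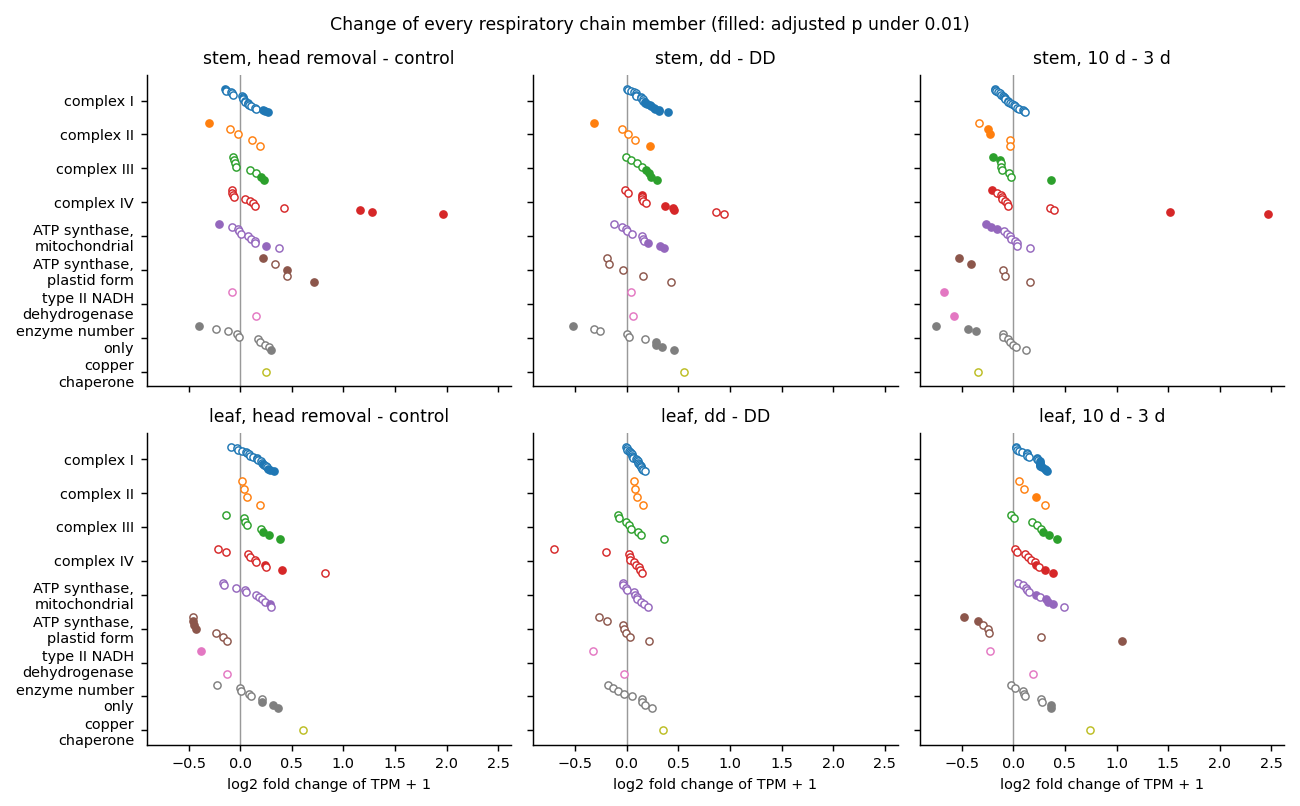
Log2 fold change of TPM + 1 for every member (horizontal axis), by class (rows), in stem (upper panels) and leaf (lower panels), for head removal minus control, *dd* minus *DD* and 10 d minus 3 d. Filled points passed at an adjusted p under 0.01; complex I lies at or above 0 throughout for *dd* in stems, and 2 copies of complex IV stand far to the right for head removal and day in stems.

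Complex I takes electrons from NADH and is the largest complex of the chain. In stems all 21 genes had a positive change in *dd*, with a median of 0.16. Of these 10 (47.6%) passed, against 5.17% of all genes higher. With median-of-ratios scaling 21 of 21 were positive and 11 passed, and with quantile scaling 20 and 9. The summed level was 3789 to 5081 TPM in the 14 *DD* samples, with a median of 4582 TPM, and 4482 to 5815 TPM in the 15 *dd* samples, with a median of 5340 TPM. The ranges overlapped, and most *dd* samples lay above most *DD* samples. The largest change was that of NDUFA9 (Sobic.004G344800), an accessory subunit. It ranged from 221 to 326 TPM in *DD* (median 275 TPM) and from 258 to 489 TPM in *dd* (median 354 TPM), a log2 change of 0.40 ± 0.07 (SE) with an adjusted p of 0.000414. NDUFA5 (Sobic.001G392800), the highest member, rose by 0.32 ± 0.07 (adjusted p = 0.00133). Named here after their values were seen, the genes described as flavoproteins 1 and 2 also passed, NDUFV1 (Sobic.002G396700) at 0.26 ± 0.06 and NDUFV2 (Sobic.009G191400) at 0.31 ± 0.06.

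Head removal moved fewer genes of complex I in stems than genotype did. Of the 21, 3 (14.3%) rose, a share near the 14.4% of all genes, and 1 (4.76%) fell, against 23.5%. The one that fell was the iron-sulfur core subunit NDUFS1 (Sobic.001G115700), at -0.15 ± 0.04 (adjusted p = 0.00516). Its call was lost under both other scalings, with the replicate number as a block and without *DD* control 10 d replicate 1 or 3, with an adjusted p of up to 0.147. No gene of complex I passed between days in stems by limma. Of the 21, 9 had an unadjusted p under 0.05, beside 9025 of 16942 stem genes. In leaves 5 genes (23.8%) rose with head removal, against 4.32% of all genes. From 3 to 10 d 10 (47.6%) rose, against 17.8%, and none fell in either comparison. NDUFA5 (Sobic.001G392800) rose in leaves by 0.33 ± 0.07 with head removal (adjusted p = 0.00293) and by 0.31 ± 0.07 with day (adjusted p = 0.00195), the latter lost with median-of-ratios scaling (adjusted p = 0.0528). All 21 genes were positive with day in leaves, but with median-of-ratios scaling 16 were and 1 passed.

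**Figure D3:**
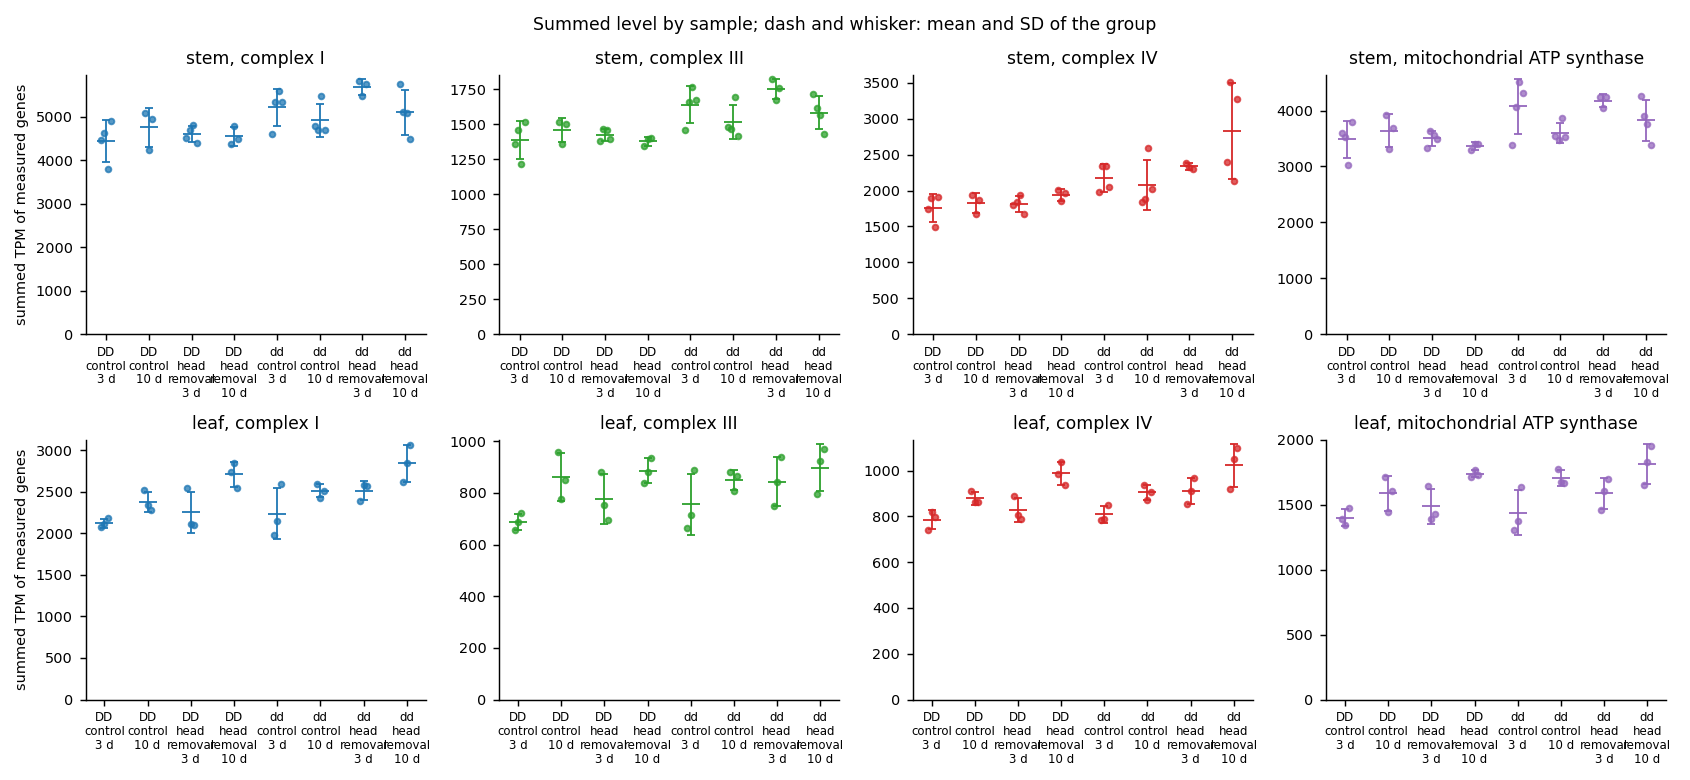
Summed TPM of the measured genes of complexes I, III and IV and of the mitochondrial ATP synthase in each sample (points) of the 8 groups of stem (upper panels) and leaf (lower panels), with the mean and SD of each group; every vertical axis starts at 0. In stems the *dd* groups at 3 d lie highest for complex I, and complex IV reaches 3514 TPM in *dd* head removal at 10 d.

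The type II NADH dehydrogenases, which pass electrons to ubiquinone as single proteins and pump no protons, fell together in stems with time. Sobic.003G343500 ranged from 24.5 to 40.1 TPM at 3 d (median 34.2 TPM) and from 13.8 to 25.2 TPM at 10 d (median 21.5 TPM). It fell by 0.67 ± 0.09 on the log2 scale (adjusted p = 2.42e-06). Sobic.010G235000 ranged from 12.4 to 19.7 TPM at 3 d (median 15.2 TPM) and from 8.30 to 12.3 TPM at 10 d (median 9.68 TPM), so that all 15 samples at 3 d lay above all 14 at 10 d. It fell by 0.57 ± 0.06 (adjusted p = 8.82e-08). Neither passed for treatment or genotype in stems. In leaves Sobic.003G343500 stood at 92.5 ± 21.1 TPM and fell by 0.38 ± 0.09 with head removal (adjusted p = 0.00382), a call lost without the leaf *DD* head removal 3 d samples that lay apart (adjusted p = 0.0185).

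Complex II, succinate dehydrogenase, links the citric acid cycle to the chain. Its only gene for the iron-sulfur subunit SDHB (Sobic.007G023400) was lower in stems by all 3 factors. It ranged from 48.7 to 76.0 TPM in controls (median 70.8 TPM) and from 39.5 to 75.2 TPM after head removal (median 50.2 TPM). The *DD* samples had a median of 71.5 TPM and the *dd* samples one of 50.8 TPM. The lowest group was *dd* head removal at 10 d, with 46.3, 44.3, 43.5 and 39.5 TPM, and the *DD* controls at 3 d stood at 75.5, 76.0, 70.9 and 70.8 TPM. These groups did not overlap. The log2 changes were -0.30 ± 0.05 with head removal (adjusted p = 2.98e-05), -0.31 ± 0.05 in *dd* (adjusted p = 0.000138) and -0.23 ± 0.05 at 10 d (adjusted p = 0.000956), the last of which did not pass with median-of-ratios scaling (adjusted p = 0.0241). In leaves SDHB changed by 0.04 ± 0.14, 0.07 ± 0.14 and 0.06 ± 0.14, none of which passed. The other subunits did not share this pattern in stems. The membrane anchor SDHC has 2 copies, of which Sobic.006G013000 rose in *dd* by 0.23 ± 0.04 (adjusted p = 0.000304) and Sobic.001G206700 fell at 10 d by 0.25 ± 0.06 (adjusted p = 0.00161). The call for day was lost with median-of-ratios scaling, under which no gene of complex II passed for day in stems. The main flavoprotein gene Sobic.002G028700 passed for no factor.

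Complex III passes electrons from ubiquinol to cytochrome c. In stems 4 of its 8 genes (50%) rose in *dd*, against 5.17% of all genes. The Rieske protein Sobic.006G058900 rose by 0.30 ± 0.06 (adjusted p = 0.000574), with 288 to 416 TPM in *DD* and 359 to 559 TPM in *dd*. Only 1 gene of the complex rose in stems by all 3 factors, a copy of the small subunit QCR7 (Sobic.002G072600). It stood at 83.8 to 127 TPM at 3 d (median 103 TPM) and at 107 to 176 TPM at 10 d (median 135 TPM). Its changes were 0.20 ± 0.05 with head removal, 0.21 ± 0.05 in *dd* and 0.36 ± 0.05 at 10 d (adjusted p = 0.000612, 0.00131 and 6.6e-07). The other copy, Sobic.001G047800, was the main one at 281 ± 35.9 TPM and rose in *dd* by 0.24 ± 0.05 (adjusted p = 0.0012). The share of QCR7 transcript from Sobic.002G072600 ranged from 23.5 to 40.7% over the stem samples.

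In leaves 3 of 8 genes of complex III (37.5%) rose with head removal and 3 with day, against 4.32% and 17.8% of all leaf genes. The QCR7 copy Sobic.002G072600 rose with head removal by 0.38 ± 0.09 (adjusted p = 0.00444), from a median of 68.7 TPM in controls to 94.4 TPM. This call was lost with the replicate number as a block, without *dd* head removal 3 d replicate 2 and without the leaf samples that lay apart (adjusted p up to 0.0209). A copy of the hinge protein QCR6 (Sobic.005G047000) rose in leaves from 3 to 10 d by 0.42 ± 0.10 (adjusted p = 0.00187). It ranged from 39.5 to 79.6 TPM at 3 d and from 47.8 to 87.9 TPM at 10 d, so the groups overlapped widely.

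Cytochrome c oxidase, complex IV, reduces oxygen. Its largest changes with head removal were those of single gene copies of nuclear-encoded subunits. For subunit 6a the main copy Sobic.001G074700 stood at 363 ± 37.0 TPM in stems and the minor copy Sobic.009G057400 at 0.734 to 292 TPM. In *DD* controls at 3 d the minor copy stood at 1.16, 4.82, 7.48 and 0.734 TPM, and in *DD* head removal at 10 d at 129.0, 38.7 and 84.7 TPM. In *dd* controls at 3 d it stood at 3.35, 6.78, 6.06 and 2.01 TPM, and in *dd* head removal at 10 d at 39.4, 292, 61.7 and 286 TPM. In both genotypes every sample of head removal at 10 d lay above every control at 3 d. The remaining 4 groups ranged from 6.07 TPM in *DD* head removal at 3 d to 84.0 TPM in *dd* control 10 d replicate 3, a sample that lay apart from the other controls. The log2 change was 1.96 ± 0.33 with head removal (adjusted p = 1.78e-05) and 2.47 ± 0.33 at 10 d (adjusted p = 1.42e-06), and 0.94 ± 0.33 in *dd*, which did not pass (adjusted p = 0.0287). As a share of subunit 6a transcript the minor copy held 0.996 ± 0.979% (SD, n = 4) in *DD* controls at 3 d and 29.6 ± 19.3% (n = 4) in *dd* head removal at 10 d. It is not in the leaf table.

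Subunit VIIa showed the same kind of change. The copy Sobic.009G161700 stood at 30.4, 94.2, 41.5 and 33.3 TPM in *DD* controls at 3 d and at 261, 192 and 134 TPM in *DD* head removal at 10 d. In *dd* head removal at 10 d it stood at 165, 1203, 200.2 and 1227 TPM. Replicates 2 and 4 of that group lay far above replicates 1 and 3, and the same replicates were the high ones for subunit 6a. In *dd* controls at 10 d the values were 99.3, 153, 500.0 and 320.2 TPM, and the higher pair were the samples that lay apart from the other controls. The log2 change was 1.16 ± 0.34 with head removal (adjusted p = 0.00543) and 1.52 ± 0.34 at 10 d (adjusted p = 0.000711). The first call was lost without *dd* head removal 10 d replicate 2 or 4 or without *DD* control 10 d replicate 1 or 2, each left out alone, with an adjusted p of up to 0.0117. The other copy, Sobic.002G398901, ranged only from 103 to 166 TPM. The share of subunit VIIa transcript from Sobic.009G161700 was 25.5 ± 9.78% (n = 4) in *DD* controls at 3 d, 63.4 ± 14.8% (n = 4) in *dd* controls at 10 d, 60.3 ± 9.58% (n = 3) in *DD* head removal at 10 d and 75.1 ± 19.0% (n = 4) in *dd* head removal at 10 d. In leaves this copy stood at 0 to 9.57 TPM.

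**Figure D4:**
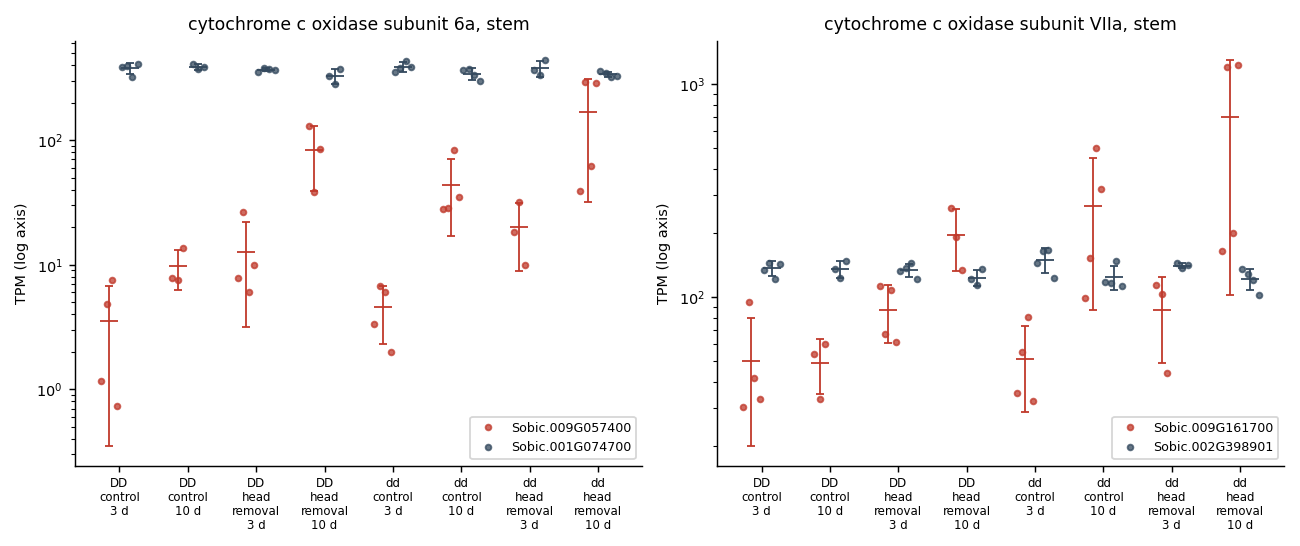
TPM (log axis) of both copies of cytochrome c oxidase subunit 6a (left) and subunit VIIa (right) in each stem sample, by group, with the mean and SD. The highest samples of the copies Sobic.009G057400 and Sobic.009G161700 are replicates 2 and 4 of *dd* head removal at 10 d, while Sobic.001G074700 and Sobic.002G398901 keep within 281 to 440 TPM and 103 to 166 TPM.

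A minor copy of subunit 6b, Sobic.002G379000, rose with head removal too. It ranged from 2.49 to 8.33 TPM in the 15 controls and from 7.04 to 21.8 TPM in the 14 head-removal samples, with medians of 4.73 and 12.2 TPM. Only the highest controls, which were the samples of *dd* at 10 d that lay apart, reached into the range of head removal. The log2 change was 1.27 ± 0.13 (adjusted p = 2.17e-08), and neither genotype (0.19 ± 0.13) nor day (0.39 ± 0.13) passed. It is not in the leaf table either. The sum of complex IV without the copies Sobic.009G057400 and Sobic.009G161700 had group means of 1662 to 1766 TPM in *DD*. In *dd* it was 2124 ± 173 TPM (n = 4) in controls and 2229 ± 37.0 TPM (n = 3) after head removal at 3 d, and 1770 ± 160 TPM (n = 4) and 1960 ± 190 TPM (n = 4) at 10 d. Head removal of *dd* at 10 d, the highest group with the copies at 2829 ± 667 TPM, was thus below both *dd* groups at 3 d without them.

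For genotype 4 of the 12 genes of complex IV (33.3%) rose in *dd* stems, against 5.17% of all genes. Of these 4, 3 were among the 5 largest genotype changes that passed the test. The main subunit 6a copy Sobic.001G074700, at 363 TPM, changed by -0.01 ± 0.05 (adjusted p = 0.877). Subunit 5b (Sobic.003G218400) ranged from 157 to 206 TPM in *DD* (median 164 TPM) and from 170 to 297 TPM in *dd* (median 235 TPM), a change of 0.46 ± 0.06 (adjusted p = 1.49e-05). Subunit 6b (Sobic.001G350600) ranged from 97.9 to 138 TPM in *DD* and from 132 to 205 TPM in *dd*, a change of 0.45 ± 0.06 (adjusted p = 9.8e-06). Subunit 5C (Sobic.008G129400) rose by 0.37 ± 0.07 (adjusted p = 0.000218). In all 3 the ranges overlapped and the *dd* median lay above the highest *DD* sample. None of the 3 passed for genotype in leaves, where the changes were 0.15 ± 0.05, 0.09 ± 0.07 and 0.03 ± 0.06. With head removal 2 genes of complex IV (20%) rose in leaves, against 4.32% of all genes. A subunit Vb relative (Sobic.009G251600) rose by 0.41 ± 0.10 (adjusted p = 0.0058), at a median of 7.48 TPM in controls and 9.11 TPM after head removal. Subunit 5C (Sobic.008G129400) rose by 0.24 ± 0.06 (adjusted p = 0.00972). The call of subunit 5C was lost in 25 of 36 alternatives. That of Sobic.009G251600 was lost in 7 of 35. Sobic.009G251600 also rose with day by 0.38 ± 0.10 (adjusted p = 0.00478), a call lost under both other scalings, without *dd* head removal 10 d replicate 3 and without the leaf samples that lay apart (adjusted p up to 0.0445).

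The mitochondrial ATP synthase makes ATP with the returning protons. In *dd* stems 3 of its 11 genes (27.3%) rose, against 5.17% of all genes, and none fell. These were subunit g (Sobic.003G209000) by 0.36 ± 0.08 (adjusted p = 0.00155), subunit O (Sobic.004G264700) by 0.32 ± 0.05 (adjusted p = 0.000147) and, named after its value was seen, subunit d (Sobic.007G159700) by 0.20 ± 0.05 (adjusted p = 0.00461). Subunit O ranged from 543 to 786 TPM in *DD* and from 689 to 966 TPM in *dd*. The catalytic subunit beta has 2 genes in the set. The main one, Sobic.009G224400, fell with head removal by 0.21 ± 0.05 (adjusted p = 0.000409), from a median of 499 to 423 TPM, and at 10 d by 0.16 ± 0.05 (adjusted p = 0.00502). The other, Sobic.003G260600 at 275 TPM, changed by -0.02 ± 0.05 with head removal (adjusted p = 0.747) and fell at 10 d by 0.21 ± 0.05 (adjusted p = 0.00072). Both calls of Sobic.009G224400 were lost with median-of-ratios scaling (adjusted p = 0.017 and 0.253), and that for day also without *DD* head removal 10 d replicate 1 and without the *dd* control 10 d samples that lay apart. With median-of-ratios scaling no gene of the mitochondrial ATP synthase passed as lower at 10 d in stems, so the day call of Sobic.003G260600 was lost too. In leaves the mitochondrial ATP synthase had 1 gene (9.09%) that rose with head removal and 4 (36.4%) that rose with day. Over all leaf genes the shares were 4.32% and 17.8%. The rotor subunit epsilon (Sobic.003G215700) was in both, at 0.29 ± 0.08 (adjusted p = 0.00807) and 0.39 ± 0.08 (adjusted p = 0.000518). The first of these was lost in 20 of 36 alternatives and the other with median-of-ratios scaling.

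The plastid-form ATP synthase, which is no part of the respiratory chain, moved with head removal in opposite directions in the organs. All 5 stem genes had a positive change and 3 (60%) passed, against 14.4% of all stem genes higher. All 7 leaf genes had a negative change and 3 (42.9%) passed, against 7.05% of all leaf genes lower. The signs held under both other scalings. Subunit delta (Sobic.004G235200), which joins the stator to the catalytic head, ranged in stems from 32.2 to 73.8 TPM in controls (median 38.5 TPM) and from 41.9 to 102.0 TPM after head removal (median 66.2 TPM). In leaves it ranged from 434 to 754 TPM in controls (median 584 TPM) and from 311 to 535 TPM after head removal (median 439 TPM). The log2 changes were 0.71 ± 0.10 in stems (adjusted p = 1.21e-06) and -0.43 ± 0.08 in leaves (adjusted p = 0.000721). Subunit a (Sobic.003G169200) changed by 0.45 ± 0.13 in stems (adjusted p = 0.00384) and -0.46 ± 0.12 in leaves (adjusted p = 0.00682), and the leaf call was lost in 17 of 36 alternatives. The rotor subunit gamma (Sobic.002G316700) changed by 0.34 ± 0.14 in stems, which did not pass (adjusted p = 0.0424), and by -0.44 ± 0.10 in leaves (adjusted p = 0.00259). The mitochondrial gene described as subunit delta (Sobic.002G309700), shown beside the plastid form, ranged from 283 to 449 TPM in stems and from 133 to 173 TPM in leaves. The pair share a name only and are not taken as the same part of the 2 enzymes.

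**Figure D5:**
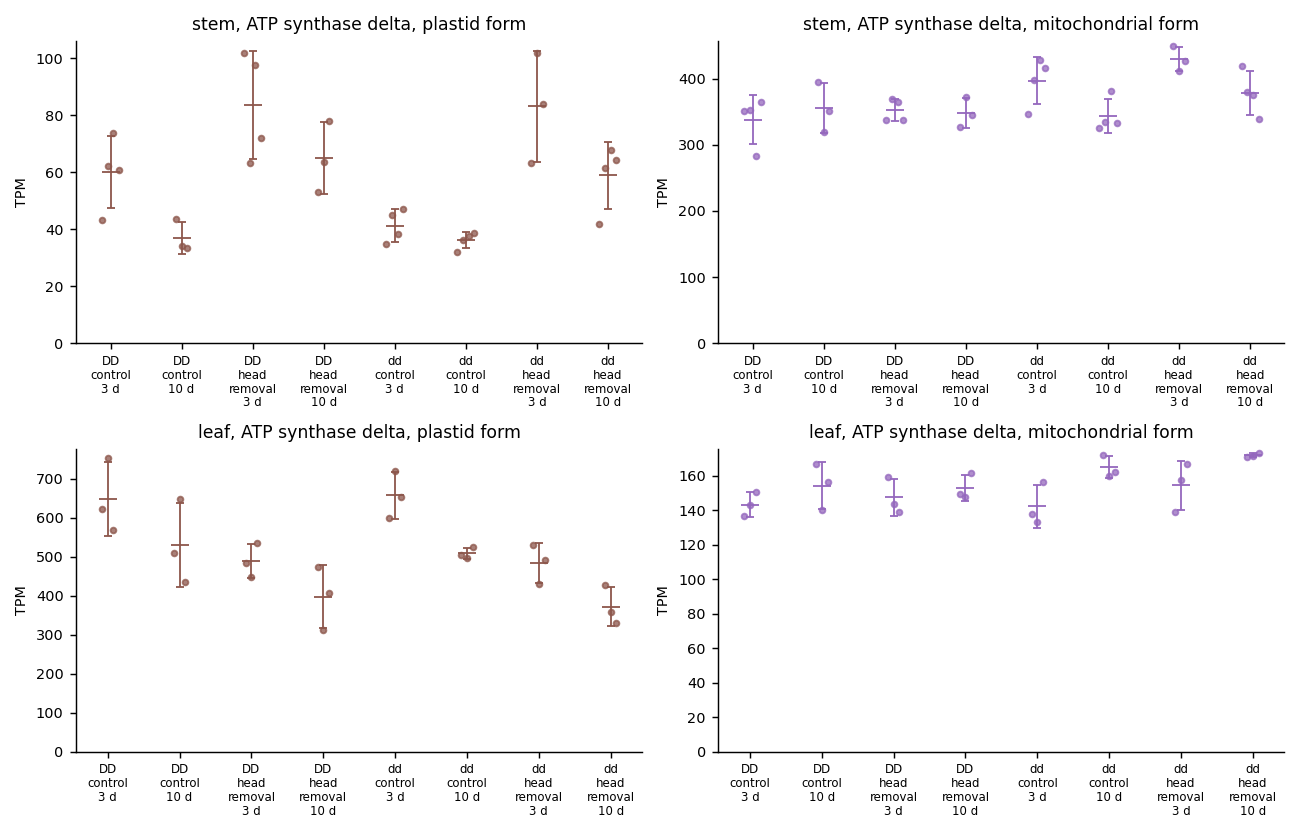
TPM of the genes described as subunit delta of the plastid-form (left) and the mitochondrial ATP synthase (right), by group, with the mean and SD. These genes share a name and are not taken as the same part. Stem samples are in the upper panels and leaf samples in the lower panels, and every vertical axis starts at 0. The plastid form rises with head removal in stems, from a median of 38.5 to 66.2 TPM, and falls in leaves, from 584 to 439 TPM.

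Green-tissue transcripts moved in the same direction in stems. Of 59 chlorenchyma markers 39 (66.1%) rose with head removal, against 14.4% of all genes, and 2 (3.39%) fell, against 23.5%. Their summed level was 4029 to 13200 TPM in controls and 6774 to 16450 TPM after head removal. In leaves 0 of 62 rose by limma, against 4.32% of all genes, and 1 (1.61%) fell, against 7.05%. Of the 62, 17 had an unadjusted p under 0.05, beside 6731 of 16386 leaf genes, and the median change was -0.21. The part of these markers in the result on the plastid-form ATP synthase was not tested. With time 2 plastid-form genes fell in each organ. These were 40% of the class in stems, against 23.7% of all genes, and 28.6% in leaves, against 3.69%. Subunit gamma (Sobic.002G316700) fell by 0.53 ± 0.14 in stems (adjusted p = 0.00301) and by 0.48 ± 0.10 in leaves (adjusted p = 0.000672), and subunit delta (Sobic.004G235200) by 0.41 ± 0.10 and 0.34 ± 0.08 (adjusted p = 0.00145 and 0.00155). Both stem calls were lost with median-of-ratios scaling. Of the 59 chlorenchyma markers 26 (44.1%) fell with time in stems, against 23.7% of all genes, and none rose, against 8.84%. The plastid-form epsilon (Sobic.007G109200), a low gene at 0.536 to 7.89 TPM that only the leaf table holds, rose with day by 1.05 ± 0.13 (adjusted p = 2.24e-05).

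Genes known only by an enzyme number went in both directions. Of 10 in stems 4 (40%) rose in *dd*, against 5.17% of all genes, and 1 (10%) fell, against 12.7%. The largest rise was that of Sobic.001G164350 at 0.46 ± 0.11 (adjusted p = 0.00209). Sobic.003G286200 rose in stems with head removal by 0.30 ± 0.07 (adjusted p = 0.000895) and in leaves with head removal by 0.36 ± 0.09 (adjusted p = 0.00761), a leaf call lost in 15 of 36 alternatives (adjusted p up to 0.0197). Sobic.003G296800, the highest of the class at 513 ± 79.0 TPM in stems, rose in leaves with head removal by 0.32 ± 0.06 (adjusted p = 0.0011) and with day by 0.37 ± 0.06 (adjusted p = 0.000125). The quinone reductase Sobic.003G429200 was lower in stems by all 3 factors, as SDHB was. It changed by -0.40 ± 0.11 with head removal, -0.52 ± 0.11 in *dd* and -0.44 ± 0.11 at 10 d (adjusted p = 0.00366, 0.00106 and 0.00192). The call for head removal was narrowly lost with median-of-ratios scaling (adjusted p = 0.0101). It stood at 19.7, 23.4, 18.9 and 21.2 TPM in *DD* controls at 3 d and at 7.31, 7.09, 8.76 and 5.80 TPM in *dd* head removal at 10 d. Its neighbour by identifier and description, Sobic.003G429300, fell at 10 d by 0.75 ± 0.17 (adjusted p = 0.000671), and such near-alike copies may share reads.

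Within single combinations few members passed, since each contrast rests on 3 or 4 samples a side. With head removal in stems the calls were 0 members in *DD* at 3 d (1.48% of all genes) and 5 in *DD* at 10 d (11.2%). In *dd* they were 4 at 3 d (10.6%) and 7 at 10 d (14.5%). At an unadjusted p under 0.05 *DD* at 3 d had 9 members, beside 3719 of 16942 genes. For genotype in stems the calls were 1 in controls at 3 d (0.342%) and 0 in controls at 10 d (0.136%). They were 9 in head removal at 3 d (2.29%) and 1 in head removal at 10 d (0.443%). Members at an unadjusted p under 0.05 for genotype numbered 32 in controls at 3 d and 9 at 10 d, beside 2740 and 3278 of all genes. With head removal they numbered 34 at 3 d and 25 at 10 d, beside 5441 and 3665 of all genes. The median changes of the members were 0.18, 0.02, 0.18 and 0.17 in that order. For day in stems the calls were 1 in *DD* controls (3.15%), 4 in *dd* controls (4.69%), 6 in *DD* head removal (7.5%) and 8 in *dd* head removal (7.17%). No leaf member passed in any of the 12 contrasts, where 2.72% of all leaf genes passed at least 1. Unadjusted p under 0.05 numbered 0 to 32 members per contrast, beside 993 to 4752 of 16386 leaf genes. By limma no member passed any two-way interaction in stems (0.0531% of all genes) or leaves (0% of all genes). In stems 11 members had an unadjusted p under 0.05 for treatment by day, 3 for treatment by genotype and 15 for genotype by day. The counts over all stem genes were 2381, 1173 and 1794. In leaves 3, 1 and 5 members did, beside 1431, 624 and 1237 of all leaf genes.

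The difference between the stem and leaf effects was tested over the 71 shared members, in 1 limma fit of both organs with separate additive terms for each. This fit took stem and leaf samples as independent and as sharing 1 spread per gene. The sources do not state whether both organs came from the same plants. For head removal the difference passed as positive for 5 members, against 10.1% of 14496 genes, and as negative for 6, against 12.1%. They were the 5 shared plastid-form genes, with differences from 0.35 ± 0.11 for subunit b (Sobic.001G417200) to 1.15 ± 0.13 for subunit delta (Sobic.004G235200, adjusted p = 1.86e-09). Without the leaf *DD* head removal 3 d samples that lay apart 3 members were positive. Of the 6 negative ones 4 were in complex I and 2 in complex III, the largest being a copy of ESSS (Sobic.007G211500), an accessory subunit, at -0.43 ± 0.08. For genotype it passed as positive for 8 members, against 1.32% of genes, and as negative for 0, against 9.36%. In either direction 23 of 71 members had an unadjusted p under 0.05, beside 5114 of 14496 genes. The 8 were 1 of complex I, 4 of complex IV, 2 of the mitochondrial ATP synthase and 1 plastid-form gene, among them NDUFA9 at 0.37 ± 0.09 and subunit 6b (Sobic.001G350600) at 0.37 ± 0.09. The plastid-form gene and the subunit VIIa copy Sobic.009G161700, also among them, passed for genotype in neither organ taken alone. For day the difference passed as positive for 0, against 2.52% of genes, and as negative for 31, against 26.4%. In either direction 53 of 71 members had an unadjusted p under 0.05, beside 7121 of 14496 genes. With median-of-ratios scaling 1 member was negative in place of 31.

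Neighbouring genes show how far the pattern reached. For genotype in stems 5.17% of all genes were higher in *dd* and 12.7% lower. Of 10 respiratory subunits worded otherwise in the stem table, 5 (50%) rose in *dd* and none fell. The largest rise was that of a mitochondrial ATP synthase subunit (Sobic.004G030000) at 0.48 ± 0.07 (adjusted p = 4.04e-05). Outside the chain, 14 of 19 genes (73.7%) of the vacuolar V-type proton ATPase, which energises transport into the vacuole, rose in *dd* stems. This share was above the 38.6% (22 of 57) of mitochondrial complexes I to V, so the rise in *dd* was not particular to the respiratory set. Of 13 mitochondrial carriers 3 (23.1%) rose in *dd* stems and 3 (23.1%) fell, with changes from -0.74 to 0.43 and a median of 0.04. Among those that rose was an ADP/ATP carrier (Sobic.004G259200), which exports ATP from mitochondria. This carrier stood at 1403 TPM and rose by 0.43 ± 0.09 (adjusted p = 0.00135). Of 20 genes of the citric acid cycle and pyruvate dehydrogenase none passed for genotype by limma. An unadjusted p under 0.05 was found for 9 of them, beside 7491 of 16942 stem genes. Of these 20, 1 rose and 6 (30%) fell with head removal, where 23.5% of all stem genes fell, and 8 (40%) fell at 10 d, where 23.7% did. The counts for 24 assembly factors in stems were 4 higher (16.7%) and 1 lower (4.17%) in *dd*. For 47 genes of import, prohibitins and porins they were 7 (14.9%) and 3 (6.38%). In leaves with day, 11 of 24 assembly factors (45.8%) and 21 of 46 import genes (45.7%) rose and none fell, against 17.8% of all leaf genes higher. These lists were not recomputed under other scalings.

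The ubiquinol oxidases had 4 genes in stems, of which 2 (50%) rose with head removal, against 14.4% of all genes. The mitochondrial enzymes, known as alternative oxidases, carry electrons from ubiquinol straight to oxygen and so bypass complexes III and IV, while a related enzyme works in plastids. Sobic.006G202500, described as mitochondrial and at 9.89 TPM, rose by 0.70 ± 0.13 (adjusted p = 5.12e-05). Sobic.006G258800, described as a chloroplast enzyme, rose by 0.37 ± 0.11 (adjusted p = 0.00431) and was lower in *dd*, by -0.56 ± 0.11 (adjusted p = 0.000393). In leaves 1 of 5 (20%) rose with head removal, against 4.32% of all genes. This was Sobic.004G270500, by 0.49 ± 0.11 (adjusted p = 0.0032). Of the 2 genes of cytochrome c, the carrier between complexes III and IV, the minor Sobic.003G380300 fell in stems with head removal by 0.89 ± 0.16 (adjusted p = 6.11e-05) and the main Sobic.009G141800 rose at 10 d by 0.39 ± 0.08 (adjusted p = 0.000362).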

How the data were processed

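RNA-seq was made from the inner stem tissue and the leaves of both sorghum lines. The submitters' processing notes name FastQC, Trimmomatic, STAR and DESeq2, with versions not given in the sources used here. The authors deposited TPM values per gene and sample, keeping genes above 3 TPM in at least 2 samples of an organ. Stem columns summed to 994406 to 996581 and leaf columns to 994771 to 995806. Depth is not given. Columns of the authors' own comparisons (mean counts, fold changes and p-values) were not used. Of 64 samples described, 3 stem and 8 leaf samples were not analysed here.

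Values were analysed as log2(TPM + 1) with limma 3.58.1 in R 4.3.3, using eBayes with a variance trend, additive terms for treatment, genotype and day, and Benjamini-Hochberg adjustment over all genes of an organ, with a threshold of 0.01. Contrasts within combinations and interactions used the 8 group means. The script was tested on simulated data. Figures were drawn with Python 3.11.15 and matplotlib 3.10.9. The members and lists were chosen with earlier results of these data known. Named members were up to 5 with the highest and 5 with the lowest change past the test for each organ and factor, the highest stem member of each complex, the ubiquinol oxidases, copies with opposite calls (none were found) and up to 5 for each interaction or organ difference. Others, chosen after their values were seen, serve to describe a complex or its copies. Alternatives were pseudocounts of 0.1 and 3, a minimum mean of 10 TPM, scaling by median of ratios or quantiles, a fit without variance trend, robust variances, array weights, group means, the replicate number as a block, a threshold of 0.05, the mitochondrial members alone and each sample left out. Leaving out the samples that lay apart was chosen after seeing the data.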

Additional observations from a re-analysis of the deposited data

Results flagged for a closer look

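In 90 combinations of a stem group of 4 and a value (12 members and 6 sums), 3 had a sample far from the others of its group. Chance gives such a sample in about 1 in 20 groups. All 3 were in *dd* control 10 d replicate 3. The summed level of complex I was 5479 TPM there and 4688 to 4792 TPM in the other samples of the group. The subunit 6a copy Sobic.009G057400 stood at 84.0 TPM, against 28.0 to 35.0 TPM, and subunit 6b (Sobic.001G350600) at 182 TPM, against 132 to 138 TPM.

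The effect in stems differed from that in leaves, by a test of the difference itself, for up to 5 named members per factor. For head removal the difference (stem minus leaf, log2) was 1.15 ± 0.13 for the plastid-form subunit delta Sobic.004G235200 (limma, adjusted p = 1.86e-09), 0.91 ± 0.18 for subunit a Sobic.003G169200 (adjusted p = 6.3e-05), 0.78 ± 0.18 for subunit gamma Sobic.002G316700 (adjusted p = 0.000507) and 0.69 ± 0.20 for subunit beta Sobic.004G087000 (adjusted p = 0.00526). It was -0.43 ± 0.08 for the complex I subunit ESSS, Sobic.007G211500 (adjusted p = 5.14e-05). For genotype it was 1.56 ± 0.44 for the subunit VIIa copy Sobic.009G161700 (adjusted p = 0.00879), which is near 0 TPM in leaves, and 0.69 ± 0.18 for Sobic.003G169200 (adjusted p = 0.00391). Neither of these genes passed for genotype in stems or in leaves taken alone. The difference for genotype was 0.39 ± 0.10 for the ATP synthase subunit g Sobic.003G209000 (adjusted p = 0.00553), 0.37 ± 0.09 for NDUFA9, Sobic.004G344800 (adjusted p = 0.00349), and 0.37 ± 0.09 for Sobic.001G350600 (adjusted p = 0.00397). For day it was -0.77 ± 0.13 for the type II NADH dehydrogenase Sobic.010G235000 (adjusted p = 6.73e-06), -0.72 ± 0.19 for the quinone reductase Sobic.003G429200 (adjusted p = 0.00237) and -0.54 ± 0.11 for QCR6, Sobic.005G047000 (adjusted p = 0.000124). It was -0.45 ± 0.11 for Sobic.009G251600 (adjusted p = 0.00121) and -0.44 ± 0.13 for the type II NADH dehydrogenase Sobic.003G343500 (adjusted p = 0.00533).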

How the results depend on the processing

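The sign of the 62 named effects that passed held in all 2422 alternatives run on them, 36 kept their call throughout and 157 alternatives missed the threshold. Most of these alternatives left out 1 sample, which changes a fit little. The threshold of 0.05 reused the main fit and could change neither a sign nor a call that had passed. The cause of the changes below was not tested. With median-of-ratios scaling the members called numbered 20 higher and 1 lower for treatment in stems, 6 higher and 5 lower for day in stems, 1 lower for genotype in leaves and 6 higher for day in leaves. The stem minus leaf differences were then 3 negative for treatment, 16 positive for genotype and 1 negative for day. Quantile scaling gave 5 higher for day in stems. With an adjusted p under 0.05 there were 23 higher and 8 lower (stem treatment), 4 lower (stem genotype), 30 higher (leaf treatment), 2 higher and 1 lower (leaf genotype) and 4 lower (leaf day), and for stem minus leaf 12 negative (treatment), 15 positive and 2 negative (genotype) and 1 positive (day). A pseudocount of 3 gave 1 positive for day. Array weights gave 1 higher and 1 lower for leaf genotype. The mitochondrial members alone gave 1 lower for leaf treatment and 0 for leaf day.

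Leaving out 1 sample at a time gave 11 to 15 higher and 3 to 6 lower for treatment in stems, 22 to 28 and 2 for genotype, and 3 to 4 and 12 to 18 for day. In leaves it gave 7 to 21 and 3 to 5 for treatment, 0 to 1 and 0 to 1 for genotype, and 19 to 27 and 2 to 3 for day. Without both leaf *DD* head removal 3 d samples that lay apart, an alternative chosen after seeing the data, leaf treatment gave 6 higher and 1 lower, leaf genotype 1 and 1, and stem minus leaf for treatment 3 positive. Without both stem *dd* control 10 d samples that lay apart no count moved by over 1.5 times.

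With the replicate block leaf treatment gave 5 higher, and leaf genotype 1 higher and 1 lower. Same-numbered samples deviated together no more than others (mean r of -0.004 over 91 pairs in stems and -0.027 over 60 in leaves, with 30 and 16 pairs over 0.1), so the numbers were not taken as pairing the samples. Depth is unknown, so counting error could not be separated from the spread between samples.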
